A study of Mus musculus with 18 samples.

Results

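The 33 genes described here encode soluble hydrolases and membrane proteins of the lysosome, the acidic compartment in which cells break down proteins, lipids, glycans and glycogen. They were chosen by name from the 34745 genes of the deposited table, with cathepsins and proton pump subunits left out. The rule used no measured value, but earlier results of these data were known when the set was chosen. All 33 had 1 line in the table and passed the filter on low counts. RNA sequencing had been run on mouse bone marrow-derived macrophages (BMDMs), cells grown from marrow with the growth factor M-CSF. The cells came from wild-type (WT) or Zmat1 knockout (KO) littermates of 4 to 8 weeks on a C57BL/6 background, offspring of heterozygotes that carry the deletion in the whole body. Day 0 cells had received M-CSF alone. Day 1 and day 3 cells had received M-CSF together with RANKL, the cytokine that drives osteoclast formation, for 1 or 3 days. No library of day 1 or day 3 was without RANKL, so RANKL and time in culture cannot be told apart. Label and day split the 18 libraries into 6 groups of 3, and the labels do not say whether the libraries of a group came from separate mice, so p-values measure the spread between these libraries only.

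Most soluble lysosomal enzymes are made in the endoplasmic reticulum, receive a mannose 6-phosphate tag in the Golgi and are carried to the lysosome by receptors for that tag. Macrophages use them to digest what they engulf. Osteoclasts, which form from the same precursors, also send lysosome-related vesicles to the bone surface, where acid and enzymes are released into the resorption pit. Many lysosomal genes carry a promoter element, called CLEAR, that is bound by TFEB, TFE3, MITF and TFEC, a family of transcription factors that activates lysosomal genes.

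Total counts ran from 13789775 to 17559958 per library. Zmat1, the gene named in the labels, was counted in every library, with 49 to 99 counts in the 9 libraries labelled KO and 32 to 91 in the 9 labelled WT, and KO over WT it differed on day 3 by 0.63 on the log2 scale (edgeR, SE 0.406, adjusted p = 0.615). Its counts therefore did not follow the labels, and directions below are given by label only. The paper reports a check of the genotypes of its mice by PCR on tail DNA and of Zmat1 mRNA in BMDMs by qPCR. Which part of the gene the counted reads cover was not examined here. The macrophage label was checked against 6 markers (Adgre1, Csf1r, Cd68, Itgam, Lyz2, Mrc1), all of which were counted on day 0. Their summed level there was 29582 to 57420 CPM (counts scaled to a common library size) in the libraries labelled WT and 33625 to 59894 CPM in those labelled KO. Lyz2 alone held most of the mean sum in each label, on day 0 and also on day 3. The titles of 5 libraries, all of day 0 or day 1, have a double hyphen in place of a single one (1 WT and 1 KO library of day 0, 1 WT and 2 KO libraries of day 1), and many genes differed with it, as described for the lysosomal genes further on. A pair of WT day 1 libraries carry the number 1, and the one with the double hyphen is called 1b.

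The promoter table used here (RefSeq, GRCm38.p6) holds 300 bases for each gene start and had an entry for 30 of the 33 genes, with none for Asah1, Npc1 and Galns. Both strands were searched for CACGTG, the E-box at the core of the CLEAR element, and for longer forms that contain it, TCACGTGA and the same letters with G before and C after them. CACGTG occurred in 10 of the 30 promoters (33.3%), against 8.09% of the 27025 gene symbols with a promoter and 4 of 32 other lysosomal genes (12.5%). TCACGTGA occurred in Cln3, Gla and Mcoln1 (10% of the 30, against 1.12% of all symbols and 12.5% of the other lysosomal genes), and the longest form in Cln3 alone (3.33%, against 0.37%). The stretches below are shown because each holds a match in 1 of the 5 genes of the set that have one and were lower on day 3 in at least 1 label, and in Arsa, which was higher in the libraries labelled KO. Each is 30 bases long and runs 5′ to 3′ on the strand of the gene, with CACGTG in capitals.
Lamp1, chr8:13159095-13159124, plus strand: gatatCACGTGgtccagcgccCACGTGatg
Mcoln1, chr8:3500462-3500491, plus strand: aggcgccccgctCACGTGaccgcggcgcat
Cln3, chr7:126583340-126583369, minus strand: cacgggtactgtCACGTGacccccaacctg
Gla, chrX:134601182-134601211, minus strand: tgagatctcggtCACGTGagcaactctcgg
Lgmn, chr12:102439124-102439153, minus strand: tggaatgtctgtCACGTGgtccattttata
Arsa, chr15:89477423-89477452, minus strand: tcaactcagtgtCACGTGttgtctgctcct
Distances here are from the start used in the promoter table. That start can differ from the gene start in the GENCODE annotation and in the gene positions given below. Lamp1 had 4 matches, which began 61, 45, 28 and 15 bases before its promoter table start, and the stretch shown holds those at 61 and 45. Mcoln1 (71 and 45 bases before its promoter table start), Cln3 (149 and 121) and Gla (227 and 194) had 2 matches each, of which 1 is shown. In the GENCODE annotation the stretches of Lamp1 and Gla lie upstream of the gene, and those of Mcoln1 and Cln3 lie in noncoding parts of an exon. That of Lgmn lies in an intron, and that of Arsa reaches 3 bases into the first exon. The other promoters with a match were those of Sgsh, Naglu, Gaa and Glb1. A match is a string of letters in this window and not a measured binding site, and no match says only that the letters are absent from the window.

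Before RANKL the 33 genes together took 4.57% to 5.96% of all counts in the libraries labelled WT (mean 5.04% ± 0.796, SD, n = 3) and 4.36% to 5.81% in those labelled KO (4.95% ± 0.764). On day 3 the share was 1.70% to 2.49% (2.14% ± 0.40) in the libraries labelled WT and 1.88% to 2.55% (2.24% ± 0.335) in those labelled KO, so that every day 3 library lay below every day 0 library. Day 1 was spread more widely, from 3.16% to 6.31% in the libraries labelled WT and from 4.19% to 5.69% in those labelled KO. Psap, which encodes prosaposin, the precursor of the saposins that help sphingolipid enzymes, held more than any other gene of the set in every group. Without Psap the share was 2.29% ± 0.073 on day 0 and 1.27% ± 0.153 on day 3 in the libraries labelled WT, and 2.11% ± 0.0591 and 1.20% ± 0.0775 in those labelled KO. In bulk RNA, fewer cells of a type and less RNA of a gene per cell cannot be told apart.

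**Figure D1:**
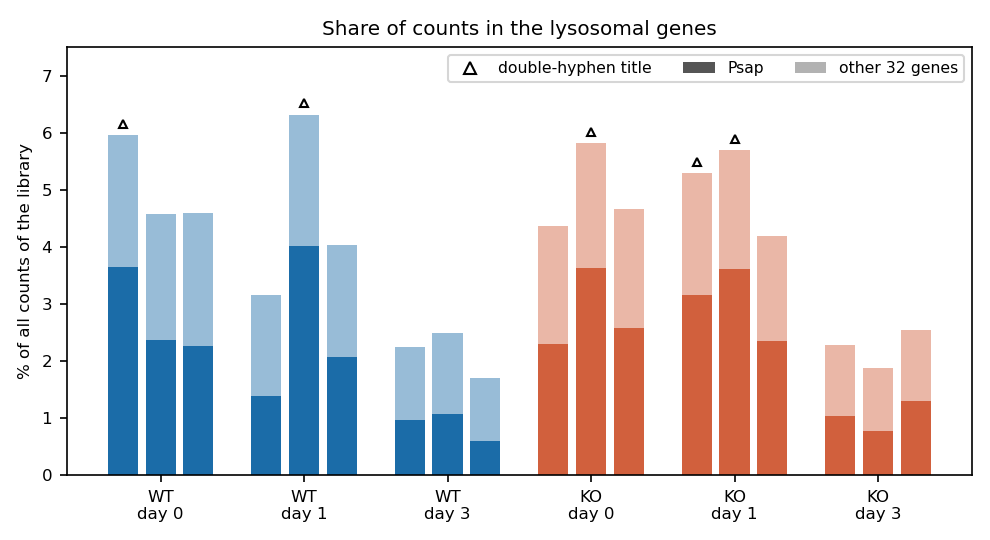
Percent of all counts of a library that fell in the 33 lysosomal genes, 1 bar per library, with Psap in the solid part and the other 32 genes in the pale part; triangles mark the 5 libraries with a double-hyphen title. The 6 day 3 bars lie between 1.70% and 2.55%, below all other bars, and the double-hyphen bars are the tallest of their groups.

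To see how lysosomal genes change as osteoclasts form, day 3 was compared with day 0 within each label (edgeR, 14241 genes tested). With libraries labelled WT, 22 of the 33 genes passed an adjusted p of 0.05, 20 lower and 2 higher. Of all genes tested, 50.2% were called in that comparison (26.5% lower and 23.7% higher). The median log2 fold change was -0.82 for the 33 genes and -0.031 for all genes. The libraries labelled KO gave 25 called genes, 22 lower and 3 higher, where 42.5% of all genes were called (22.3% lower and 20.2% higher). The medians there were -0.84 and -0.0052. The day 0 and day 3 groups did not overlap in 27 of the 33 genes in either label, while 62.5% (WT) and 58.8% (KO) of all genes did not overlap. By the threshold of the study, which asks for a fold change over 1.5 or under 0.66 and a p under 0.05 without adjustment, 22 (WT) and 23 (KO) of the 33 genes passed, against 45.3% and 38.8% of all genes. The same 20 genes were lower in both labels, Arsb and Smpd1 were higher in both, and 8 genes were called in neither (Cd63, Naglu, Galns, Sgsh, Tpp1, Glb1, Manba and Gaa). Of all 14241 genes, 2800 were lower in both labels, 2286 higher in both and 6141 called in neither. Gusb, Gla and Arsa were called in the libraries labelled KO alone, and whether these 3 differed between the labels is tested below.

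**Figure D2:**
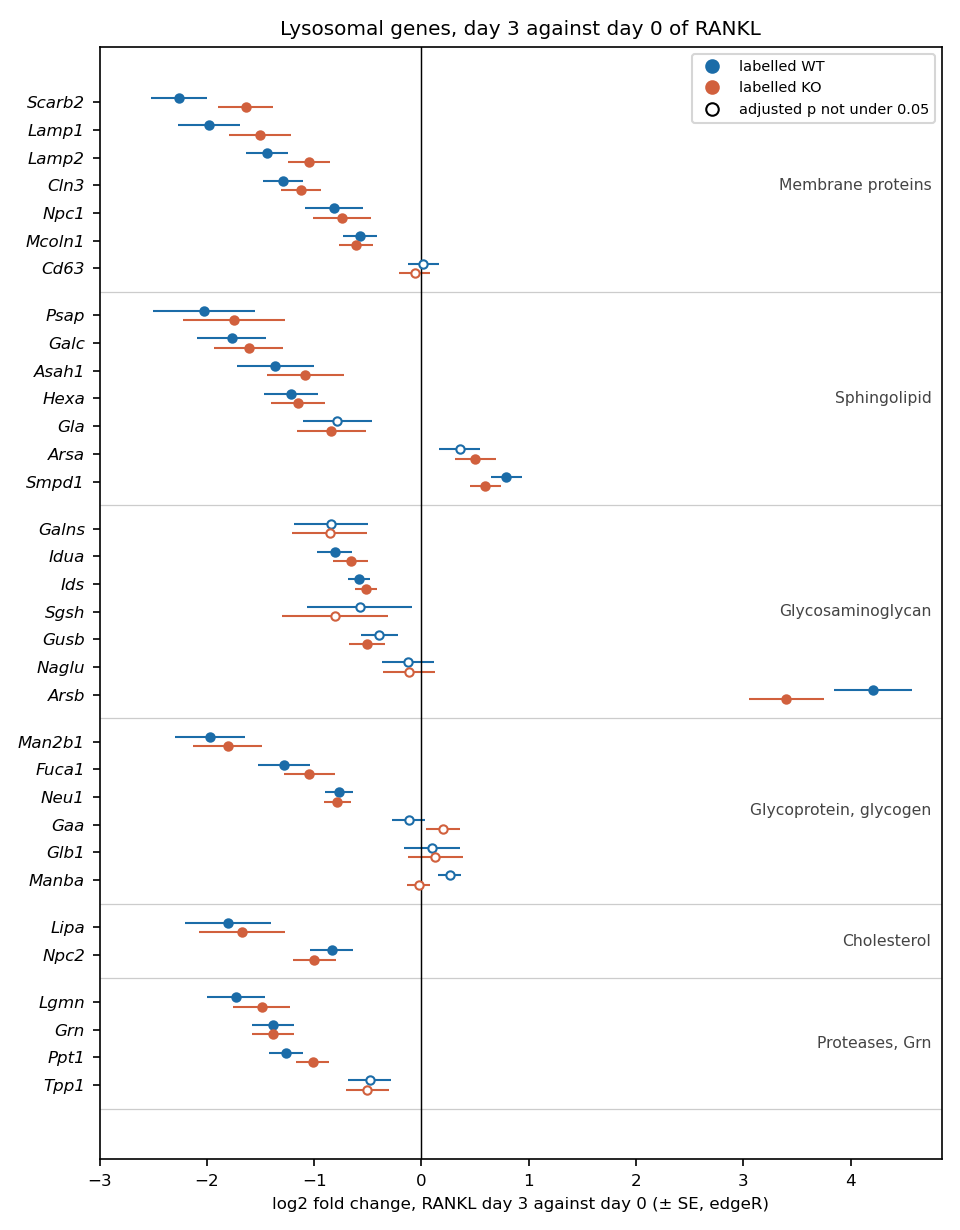
Log2 fold change from day 0 to day 3 of RANKL for each of the 33 genes, with its SE, in the libraries labelled WT (blue) and KO (orange), grouped by the role of the protein. Open points did not pass an adjusted p of 0.05; most points lie left of 0, and Arsb stands alone on the right at 4.21 and 3.40.

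The scale bears on these counts. With total counts in place of trimmed mean of M values (TMM) scaling, the log2 median over all genes moved by 0.36 in libraries labelled WT and 0.29 in those labelled KO, so changes are relative to the TMM median. On total counts, 17 of the genes were lower and 5 higher in the libraries labelled WT, and 15 were lower and 4 higher in those labelled KO. The lower genes were then 77.3% and 78.9% of the members called, against 90.9% and 88% with TMM, while over all genes the lower share of calls went from 52.8% to 30.1% (WT) and from 52.5% to 31.5% (KO). Of the genes called with TMM, 19 (WT) and 17 (KO) stayed called in each of the 16 alternatives tried.

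Markers of several cell types moved with the day as well. The 6 macrophage markers summed to 6380 to 13194 CPM on day 3 in the libraries labelled WT and 8714 to 17439 CPM in those labelled KO, and 5 of the 6 were lower in each label (Lyz2 and Adgre1 fell most in the libraries labelled WT). The 10 osteoclast markers summed to 224 to 649 CPM on WT day 0 and 16039 to 23380 CPM on WT day 3. Those labelled KO summed to 670 to 988 CPM and 8293 to 17734 CPM. In each label 9 of the 10 were higher on day 3, and Calcr, a defining marker, was at 0 counts in all libraries of days 0 and 1. The 8 stromal or osteoblast markers summed to 68.9 to 3967 CPM on WT day 0 and 9499 to 12421 CPM on WT day 3, with Bglap at 0 in all 9 libraries labelled WT, and to 853 to 3015 CPM and 16555 to 24670 CPM in the libraries labelled KO. Of the 7 tested, 4 (WT) and 6 (KO) were higher, Lum and Col3a1 among them. The 8 neutrophil markers, Ngp and Camp among them, were all lower on day 3 in both labels, at 662 to 3012 CPM and then 35.8 to 66.9 CPM (WT), and 3650 to 11714 CPM and then 97.6 to 1147 CPM (KO). T or NK cell markers, of which Nkg7 was lower on day 3, reached at most 8.37 CPM and erythroid markers at most 19.97 CPM in any library, with Alas2 at 0 throughout. Averaged over the days, 3 of the 8 neutrophil markers and 1 of the 7 stromal ones tested were called higher in libraries labelled KO than WT. None of these markers was called lower, and 1.59% of all genes were called. On no single day was a marker of either list called between the labels. The part of these cells in the changes of the lysosomal genes, or in the comparison of the labels, was not tested.

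The style of the titles also moved with the lysosomal genes. With style as a term in the fit, edgeR called 13 of the 33 genes higher in the libraries with a double hyphen and 0 lower, where 23.2% of all genes were called (9.94% higher and 13.3% lower). The 13 were Psap, Lipa, Asah1, Galns, Galc, Gla, Npc1, Naglu, Hexa, Glb1, Tpp1, Cln3 and Gusb. The differences were largest for Psap (0.97 on the log2 scale, adjusted p = 0.00554, edgeR), Lipa (0.82) and Asah1 (0.79). All day 3 libraries have single hyphens. Without the 5 double-hyphen libraries, 22 (WT) and 23 (KO) of the 33 genes were called on day 3 against day 0, and the calls lost were those of Gla and Gusb in the libraries labelled KO.

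Of the 7 membrane proteins, 6 fell in both labels, and Cd63 was the exception. Lamp1 and Lamp2 are the heavily glycosylated proteins that line the lysosome membrane. Lamp1 (ENSMUSG00000031447, chromosome 8, 13159135 to 13175338) measured 5290, 5550 and 4430 CPM in the 3 WT libraries of day 0 and 1341, 1618 and 914 CPM in those of day 3. With the KO label it measured 3789, 4857 and 3916 CPM on day 0 and 1462, 1094 and 1872 CPM on day 3. No day 3 library reached the lowest day 0 library in either label. The log2 fold changes were -1.98 (SE 0.292, adjusted p = 0.000108, edgeR) and -1.50 (SE 0.288, adjusted p = 0.00112), which are 3.94-fold and 2.84-fold falls.

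Lamp2 (ENSMUSG00000016534, chromosome X, 38401357 to 38456454) went from 798, 797 and 853 CPM to 314, 353 and 234 CPM in the libraries labelled WT. With the KO label it went from 716, 719 and 715 CPM to 353, 293 and 394 CPM. The day 0 and day 3 libraries were again fully apart, with log2 fold changes of -1.44 (SE 0.198, adjusted p = 6.55e-05, edgeR) and -1.05 (SE 0.196, adjusted p = 0.000964). Scarb2 (ENSMUSG00000029426, chromosome 5, 92441314 to 92506833) encodes LIMP-2, which carries beta-glucocerebrosidase to the lysosome. It had the largest fall of the set in the libraries labelled WT, from 441, 466 and 332 CPM to 86.7, 113 and 59.3 CPM, which was -2.26 on the log2 scale (edgeR, SE 0.265, adjusted p = 2.28e-05). With the KO label it went from 323, 364 and 321 CPM to 99.5, 85.9 and 138 CPM (-1.64, SE 0.26, adjusted p = 0.000311). The groups did not overlap in either label.

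Cd63 (ENSMUSG00000025351, chromosome 10, 128908919 to 128912816), a tetraspanin of late endosomes and lysosomes, measured 549, 454 and 481 CPM on day 0 and 473, 593 and 436 CPM on day 3 in the libraries labelled WT. The KO libraries had 509, 635 and 494 CPM and then 509, 515 and 544 CPM. The groups overlapped in both labels, and the log2 fold changes were 0.018 (SE 0.147, adjusted p = 0.927, edgeR) and -0.064 (SE 0.147, adjusted p = 0.748). On total counts Cd63 was higher on day 3 in the libraries labelled WT (0.38, adjusted p = 0.0216, edgeR) and not called in those labelled KO (0.23, adjusted p = 0.147). The other 3 membrane proteins were Cln3, a protein mutated in a childhood neurodegeneration, Npc1, which exports cholesterol from the lysosome, and Mcoln1, a calcium channel also called TRPML1. Cln3 fell by 1.29 and 1.12 on the log2 scale, Npc1 by 0.82 and 0.74, and Mcoln1 by 0.57 and 0.61 (WT and KO). The calls of Npc1 and Mcoln1 were lost on total counts in both labels. That of Mcoln1 was also lost without WT day 0 library 2 (-0.40, adjusted p = 0.0674, edgeR). Npc1 was not called without library 1 or 2 of WT day 0, library 3 of WT day 3, library 2 or 3 of KO day 0, or library 1 or 2 of KO day 3 (-0.53 to -0.79, adjusted p of 0.0576 to 0.168, edgeR).

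**Figure D3:**
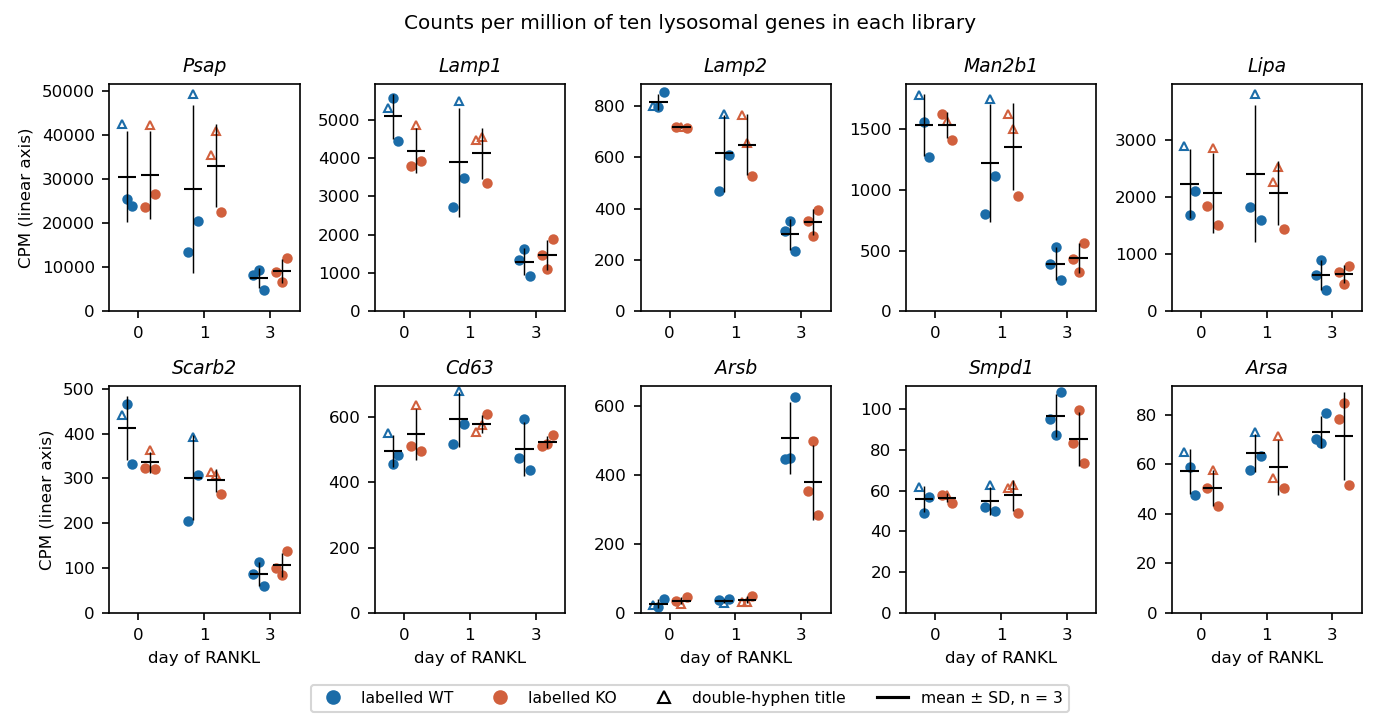
TMM-scaled CPM of 10 lysosomal genes in each library by day of RANKL, with libraries labelled WT in blue and KO in orange; horizontal bars are means, vertical bars are SD (n = 3), and open triangles are the libraries with a double-hyphen title. Psap, Lamp1, Lamp2, Man2b1, Lipa and Scarb2 are lower on day 3 than in any day 0 library, Cd63 overlaps, and Arsb and Smpd1 lie above every earlier library.

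Of the 7 genes of sphingolipid breakdown, 4 were lower and Smpd1 higher in the libraries labelled WT, and 5 were lower and 2 higher in those labelled KO. Psap (ENSMUSG00000004207, chromosome 10, 60277627 to 60302597) measured 42540, 25390 and 23810 CPM on day 0 and 8234, 9342 and 4926 CPM on day 3 in the libraries labelled WT. The corresponding values in the libraries labelled KO were 23692, 42263 and 26669 CPM, and 8864, 6687 and 12003 CPM. The highest day 0 value in each label came from its double-hyphen library, and the day 3 libraries lay below the rest as well. The log2 fold changes were -2.03 (SE 0.478, adjusted p = 0.00312, edgeR) and -1.75 (SE 0.474, adjusted p = 0.00922). Galc, which cleaves galactosylceramide, had falls of -1.77 and -1.61 in log2 terms (WT, then KO). Asah1, the acid ceramidase, fell by 1.36 and 1.08, and Hexa, the alpha subunit of beta-hexosaminidase, by 1.22 and 1.15. The KO call of Asah1 was lost on total counts and without library 1 or 2 of KO day 0 and without library 2 or 3 of KO day 3 (-0.82 to -1.03, adjusted p of 0.0592 to 0.11, edgeR). Gla, the alpha-galactosidase that is deficient in Fabry disease, had log2 fold changes of -0.78 (adjusted p = 0.0529, edgeR) and -0.84 (adjusted p = 0.0464), and the latter call held in 4 of 16 alternatives and was lost without any 1 of the 6 KO libraries compared (-0.62 to -0.94, adjusted p of 0.0531 to 0.181). Without WT day 0 library 2 Gla was called in the libraries labelled WT (-1.07, adjusted p = 0.00709).

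Smpd1 rose in both labels and Arsa in the libraries labelled KO. Smpd1 (ENSMUSG00000037049, chromosome 7, 105554360 to 105558388), the acid sphingomyelinase, measured 61.9, 49.1 and 56.7 CPM on day 0 and 95.0, 87.0 and 108 CPM on day 3 in the libraries labelled WT. The KO libraries had 57.7, 57.9 and 54.0 CPM and then 83.3, 99.5 and 73.4 CPM. All day 3 libraries lay above all day 0 libraries, with log2 fold changes of 0.79 (SE 0.142, adjusted p = 0.000481, edgeR) and 0.60 (SE 0.142, adjusted p = 0.00445). Arsa (ENSMUSG00000022620, chromosome 15, 89472476 to 89477425), the sulfatase that removes sulfate from sulfatide, measured 65.0, 58.9 and 47.4 CPM and then 70.3, 68.6 and 80.5 CPM in the libraries labelled WT. The values labelled KO went from 50.6, 57.6 and 43.1 CPM to 78.1, 84.8 and 51.4 CPM, where day 3 library 3 lay within the day 0 range. Its log2 fold changes were 0.36 (SE 0.19, adjusted p = 0.128, edgeR) and 0.50 (SE 0.19, adjusted p = 0.0457). The latter call held in 10 of 16 alternatives and was lost without KO day 3 library 1 (0.43, adjusted p = 0.13) or 2 (0.36, adjusted p = 0.187), and without KO day 0 library 1 (0.53, adjusted p = 0.0789) or 3 (0.43, adjusted p = 0.128).

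Arsb stood apart from the other 6 genes of glycosaminoglycan breakdown and from the rest of the set. Arsb (ENSMUSG00000042082, chromosome 13, 93771679 to 93943016) encodes arylsulfatase B, which removes sulfate from dermatan and chondroitin sulfate. It measured 23.2, 17.1 and 41.8 CPM on day 0, 38.1, 28.0 and 40.2 CPM on day 1 and 445, 448 and 626 CPM on day 3 in the libraries labelled WT. The KO libraries had 34.1, 26.5 and 46.9 CPM, then 32.3, 32.7 and 49.7 CPM, and then 353, 497 and 284 CPM. Every day 3 library was thus above every earlier one, with 18.5-fold (log2 fold change 4.21, SE 0.361, adjusted p = 3.19e-06, edgeR) and 10.6-fold (3.40, SE 0.347, adjusted p = 1.86e-05) higher levels than on day 0. The 16 alternatives gave 3.99 to 4.68 in the libraries labelled WT, and 3.16 to 3.68 in those labelled KO.

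Of the other glycosaminoglycan enzymes, Idua, the alpha-iduronidase, and Ids, the iduronate sulfatase, were lower in both labels. Idua fell by 0.81 and 0.66 on the log2 scale and Ids by 0.58 and 0.52 (WT and KO), and on total counts the calls of Ids in both labels and of Idua in the libraries labelled KO were lost. Gusb, the beta-glucuronidase, had log2 fold changes of -0.39 (adjusted p = 0.0659, edgeR) and -0.51 (adjusted p = 0.0273). The latter was -0.27 (adjusted p = 0.202) without KO day 0 library 2, and the call held in 7 of 16 alternatives, being lost without any 1 of the KO day 3 libraries as well (adjusted p of 0.0518 to 0.083). Without WT day 0 library 3 it was called in the libraries labelled WT (-0.50, adjusted p = 0.026). Galns, a galactosamine sulfatase, had values of -0.84 and -0.86 (adjusted p = 0.0555 and 0.0583, edgeR), and passed without WT day 0 library 2 (-1.10, adjusted p = 0.0168) or KO day 0 library 1 (-1.02, adjusted p = 0.0474). Sgsh, the heparan sulfamidase, had values of -0.57 and -0.80 (adjusted p = 0.337 and 0.199, edgeR). Naglu, which trims heparan sulfate, had values of -0.12 in both labels (adjusted p = 0.683 and 0.713, edgeR). Among the sulfatases of the set, Arsb was called higher, Ids lower and Galns and Sgsh neither way in both labels, while Arsa, a sulfatase of sphingolipid breakdown, was called higher in the libraries labelled KO and not called in those labelled WT.

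Among the 6 enzymes of glycoprotein and glycogen breakdown, Man2b1, Fuca1 and Neu1 were lower in both labels, and Glb1, Manba and Gaa were called in neither. Man2b1 (ENSMUSG00000005142, chromosome 8, 85083269 to 85098739), the alpha-mannosidase, measured 1779, 1561 and 1270 CPM on day 0 and 390, 529 and 256 CPM on day 3 in the libraries labelled WT. The KO libraries went from 1629, 1564 and 1413 CPM to 429, 322 and 564 CPM. The groups did not overlap, and the log2 fold changes were -1.97 (SE 0.326, adjusted p = 0.00026, edgeR) and -1.81 (SE 0.324, adjusted p = 0.000721). Fuca1, the alpha-fucosidase, fell by 1.28 and 1.04 on the log2 scale, and Neu1, the sialidase, by 0.77 and 0.78. Manba, the beta-mannosidase, had log2 fold changes of 0.26 (adjusted p = 0.052, edgeR) and -0.026 (adjusted p = 0.857). The former passed in 7 of 16 alternatives, with values of up to 0.63 on total counts (adjusted p = 0.00198), and 0.34 without WT day 0 library 2 (adjusted p = 0.0379). Glb1, the beta-galactosidase, had values of 0.10 and 0.13, and Gaa, the enzyme that breaks down glycogen, of -0.12 and 0.20.

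Both genes of cholesterol handling in the lumen fell. Lipa (ENSMUSG00000024781, chromosome 19, 34492318 to 34527474), the acid lipase that cleaves cholesterol esters, measured 2897, 1695 and 2115 CPM on day 0 and 644, 899 and 377 CPM on day 3 in the libraries labelled WT. The KO libraries went from 1853, 2861 and 1520 CPM to 685, 481 and 789 CPM, again without overlap. The log2 fold changes were -1.81 (SE 0.40, adjusted p = 0.00206, edgeR) and -1.67 (SE 0.399, adjusted p = 0.00441). Npc2, which hands cholesterol to Npc1, fell by 0.84 and 1.00 on the log2 scale. Of the remaining 4 genes, Lgmn, the asparaginyl protease legumain, fell by 1.73 and 1.49, and Grn, the precursor of the granulins, by 1.39 and 1.38. Ppt1, which removes palmitate from proteins, fell by 1.26 and 1.01. Tpp1, a tripeptidyl protease, had values of -0.48 and -0.51 (adjusted p = 0.0561 and 0.053, edgeR), and passed without WT day 0 library 3 (-0.56, adjusted p = 0.0433).

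Whether these genes differed between day 0 and day 1 of RANKL was asked in the same fit. None of the 33 genes was called on day 1 in either label by edgeR, where 335 of all genes were called in the libraries labelled WT (2.35%) and 3 in those labelled KO (0.0211%). At an unadjusted p under 0.05 there were 3 of the 33 in the libraries labelled WT (Manba, Ppt1 and Hexa), against 20.5% of all genes, and 0 in those labelled KO, against 10.2%, and DESeq2 called 1 (Ppt1) and 0. Hexa measured 2173, 1961 and 1711 CPM on WT day 0 and 872 (library 1), 1914 (library 1b) and 1120 (library 2) CPM on WT day 1. Its log2 fold change of -0.58 (adjusted p = 0.205, edgeR) became -0.96 (adjusted p = 0.0145) without library 1b. Library 1b, the double-hyphen library, was the highest of the WT day 1 libraries in Psap, Lamp1, Lamp2, Man2b1, Lipa and Scarb2.

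Against day 1, 24 of the 33 genes were called on day 3 in the libraries labelled WT (22 lower and 2 higher, with 32% of all genes called, 19.3% lower and 12.7% higher) and 25 in those labelled KO (23 lower and 2 higher, with 28% called, 15.5% lower and 12.5% higher). Arsb had log2 fold changes of 3.83 and 3.31 in these comparisons, and Scarb2 of -1.81 in the libraries labelled WT. The comparisons with day 0 and with day 1 use the same day 3 libraries. In all 4 of them 18 of the 33 genes were called lower, as were 1651 of all 14241 genes tested. Without all 5 double-hyphen libraries the WT count was 20 and the KO count was 3. Only 1 KO day 1 library is then left, whose spread is taken to be that of the other groups, so the smaller number of libraries and the title style cannot be told apart in the KO count. Without library 1b alone 18 of the 33 genes were called in the libraries labelled WT, and without KO day 1 library 1 or 2 alone 18 or 19 were called in those labelled KO.

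The second question of the design was whether the labels differed. Between the labels 0 of the 33 genes were called by edgeR or by DESeq2 on day 0, day 1 or day 3, where edgeR called 0.119%, 0.112% and 0.14% of all genes. At an unadjusted p under 0.05 the counts were 0, 0 and 1, against 7.59%, 7.9% and 10.7% of all genes, and the 1 gene was Manba on day 3. Log2 fold changes of KO over WT ran from -0.42 to 0.39 on day 0, from -0.24 to 0.26 on day 1 and from -0.42 to 0.33 on day 3. On day 3 the groups did not overlap in 6 of the 33 genes, 5 lower and 1 higher in the libraries labelled KO, while 29.2% of all genes did not overlap (13.3% lower and 15.9% higher). Manba measured 70.9, 79.8 and 61.5 CPM in the day 3 libraries labelled KO and 83.9, 79.6 and 89.6 CPM in those labelled WT (log2 fold change -0.25, adjusted p = 0.422, edgeR), with 1 KO library inside the WT range.

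Averaged over the 3 days, 0 of the 33 genes were called by edgeR or by DESeq2, where edgeR called 1.59% of all genes, and 2 passed an unadjusted p under 0.05 (Gusb and Manba), against 18.4% of all genes. Gusb measured 381, 399 and 353 CPM in the day 3 libraries labelled KO and 484, 459 and 465 CPM in those labelled WT, without overlap. Averaged, it differed by -0.25 on the log2 scale (edgeR, SE 0.0979, adjusted p = 0.183), and -0.30 (adjusted p = 0.0262) when the fit held a term for title style. The change from day 0 to day 3 was then compared between the labels. Of the 20 genes that fell in both, 17 had the smaller fall in the libraries labelled KO, as did 1991 of the 2800 genes of the whole table that fell in both. None of the 33 differed by the interaction of label and day on day 3 (0% of all genes called). The same held on day 1. At an unadjusted p under 0.05 the count was 0 of the 33 for both days, against 5.4% and 3.7% of all genes, and DESeq2 called 0 of the 33. The interaction was -0.81 for Arsb (SE 0.45, adjusted p = 0.921, edgeR) and 0.62 for Scarb2 (SE 0.359, adjusted p = 0.921). For Gusb, Gla and Arsa, called in the libraries labelled KO alone, no difference between the labels was thus detected.

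Levels between genes were compared in fragments per kilobase of length and per library size (FPKM), which are scaled by length and by the total count of the library. On day 0 the mean FPKM of the 33 genes ran from 6.30 (Arsb) to 6902 (Psap) in the libraries labelled WT and from 6.59 (Idua) to 7099 (Psap) in those labelled KO. Psap was the highest and Lamp1 the second highest in all 6 groups. Hexa had rank 3 on day 0 in both labels (948 and 928 FPKM), and Cd63 had rank 3 on day 3 in both (569 and 576 FPKM), after rank 7 on day 0 (436 and 490 FPKM). Arsb had the lowest mean FPKM of the 33 genes on WT day 0 (6.30 FPKM, rank 33) and rank 10 on day 3 (149 FPKM). The KO libraries took it from rank 29 (8.44 FPKM) to rank 11 (108 FPKM). Scarb2 went from rank 15 (55.7 FPKM) to rank 27 (15.0 FPKM) in the libraries labelled WT and from rank 16 to rank 24 in those labelled KO, and Smpd1 from rank 25 and 23 to rank 15 in both.

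**Figure D4:**
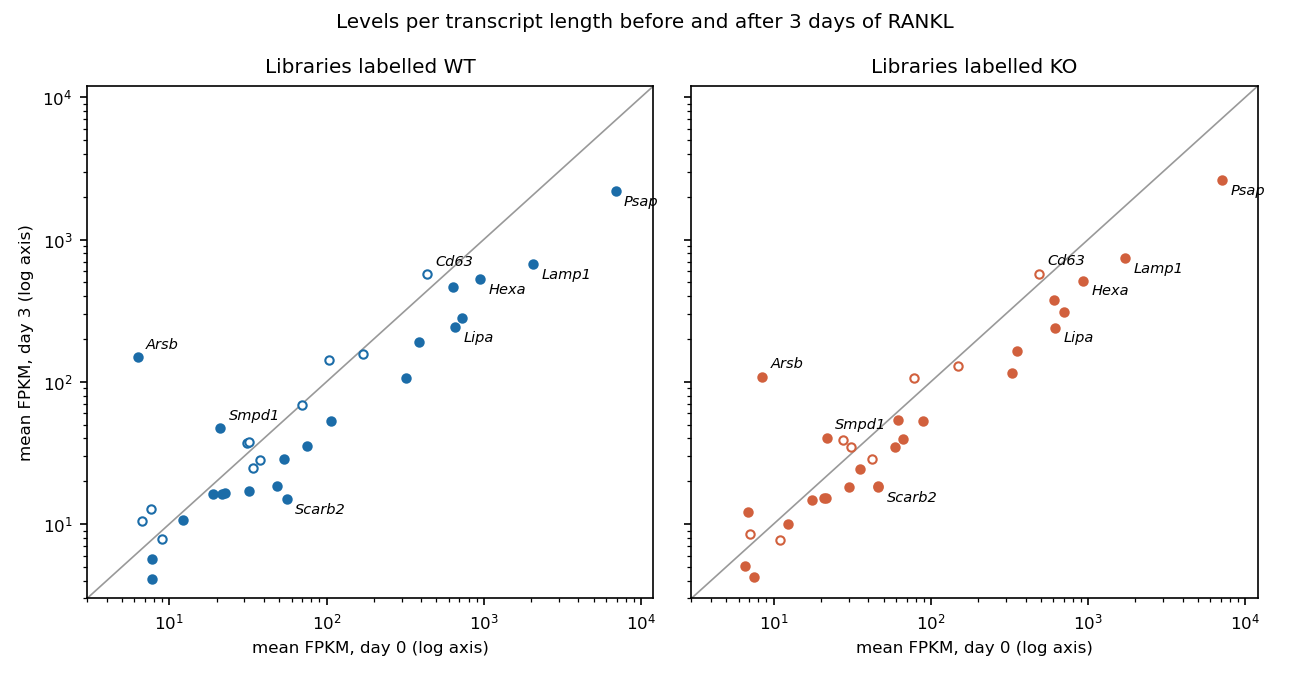
Mean deposited FPKM of the 33 genes on day 0 (horizontal, log axis) against day 3 (vertical, log axis), by label; the line marks equal values, and open points did not pass an adjusted p of 0.05 in the count test. FPKM are scaled by the total count, so points lie higher against the line than TMM-scaled changes would; Arsb, at 6.30 and 149 FPKM in the libraries labelled WT, is far above it.

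The promoter match was set beside the calls. Of the 10 genes with CACGTG in the window, 4 were lower, 0 higher and 6 not called in the libraries labelled WT (median log2 fold change -0.57). Of the 20 without it, 14 were lower, 2 higher and 4 not called (median -1.03). In the libraries labelled KO the counts were 5 lower, 1 higher and 4 not called with a match (median -0.71), and 15 lower, 2 higher and 3 not called without one (median -1.01). Psap, Scarb2, Man2b1 and Lipa, which had large falls, and Arsb and Smpd1, which were higher, had no match in the window. Lamp1 and Lgmn, which had a match, also had large falls (-1.50 and -1.49 on the log2 scale in the libraries labelled KO). These counts are a description of 30 genes and were not tested.

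Of the 4 factors that bind the CLEAR element, Tfeb and Tfe3 fell by day 3 in both labels. Tfe3 measured 248, 237 and 213 CPM on day 0 and 110, 118 and 79.9 CPM on day 3 in the libraries labelled WT (edgeR log2 fold change -1.18, adjusted p = 5.90e-05), and it fell by 1.16 on the log2 scale in those labelled KO. Tfeb measured 106, 53.2 and 49.3 CPM and then 26.3, 30.9 and 21.4 CPM in WT libraries (-1.40, adjusted p = 0.00437, edgeR), and fell by 1.18 in those labelled KO. Its highest day 0 value was that of the double-hyphen library. Mitf, which also drives osteoclast genes, had log2 fold changes of 0.051 and -0.37 (adjusted p = 0.811 and 0.0865, edgeR), and Tfec of -0.39 and -0.54 (adjusted p = 0.179 and 0.0806, edgeR).

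Genes that tag, sort or activate lysosomal enzymes, those of the mannose 6-phosphate pathway among them, moved in both directions. Of 14 such genes, 5 were higher and 7 lower in the libraries labelled WT, and 3 were higher and 5 lower in those labelled KO. The shares of all genes in these comparisons, for this list and those that follow, were 23.7% higher and 26.5% lower (WT) and 20.2% higher and 22.3% lower (KO). Gnptab, the enzyme that starts the mannose 6-phosphate tag, rose 5.64-fold (57.7 to 326 CPM, adjusted p = 1.44e-06, edgeR) in the libraries labelled WT and 3.98-fold in those labelled KO. Igf2r, the large receptor for the tag, rose 3.16-fold (168 to 530 CPM) and 2.37-fold. Sort1, a sorting receptor that also carries prosaposin, and Ap1b1, a subunit of the AP-1 adaptor, fell by 2.42 and 1.78 on the log2 scale in the libraries labelled WT and by 1.71 and 1.39 in those labelled KO.

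Of 23 other lysosomal hydrolases, 3 were higher and 13 lower in the libraries labelled WT, and 2 were higher and 13 lower in those labelled KO, with medians of -0.82 and -0.63. Acp5, the tartrate-resistant acid phosphatase used to stain osteoclasts, rose from 43.4 to 4277 CPM (WT) and from 75.3 to 3195 CPM (KO), and it is also 1 of the 10 osteoclast markers. Hyal1, a hyaluronidase, had log2 fold changes of 1.57 (adjusted p = 0.018, edgeR) and 1.19 (adjusted p = 0.0648). The sulfatase gene Arsg and the ribonuclease gene Rnaset2a fell by 1.89 and 1.82 in the libraries labelled WT, and reads of Rnaset2a may be shared with its close copy Rnaset2b. Of 19 other membrane proteins, 1 was higher and 11 lower in the libraries labelled WT, and 2 were higher and 9 lower in those labelled KO. With the WT label the lipid transporter Abca2 rose by 1.10, and Slc11a1, a metal transporter of phagosomes, and Litaf fell by 2.07 and 1.58.

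Among 13 tested genes of nutrient sensing at the lysosome, 0 were higher and 7 lower in the libraries labelled WT, and 1 was higher and 7 lower in those labelled KO. Flcn and Fnip2, partners in the complex that links amino acids to the CLEAR-binding factors, fell by 1.44 and 1.19 on the log2 scale in the libraries labelled WT. Of 16 autophagy genes, 1 was higher and 8 lower in each label, where 50.2% (WT) and 42.5% (KO) of all genes were called. Wipi1 rose by 0.84, while Ulk1, the kinase that starts autophagy, and Gabarapl1 fell by 1.62 and 1.60 in the libraries labelled WT.

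In 11 of the 33 genes the position overlaps that of another gene in the table (Npc1, Cln3, Galns, Idua, Arsb, Sgsh, Arsa, Glb1, Manba, Ppt1 and Grn). Whether the counting used strand is not given in the sources used here, so reads of such pairs may not have been told apart. Among members called on day 3, Ppt1 overlaps Cap1 (5074 to 13142 counts per library), Cln3 overlaps Apobr (694 to 2055 counts), Npc1 overlaps 3110002H16Rik (436 to 920 counts) and Idua overlaps Dgkq (258 to 593 counts), so their values are uncertain to that extent. Glb1 and Tmppe (423 to 1270 counts) lie on the same strand, where strand would not separate them. The gene that overlaps Arsb, Gm26527, had at most 1 count in any library.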

How the data were processed

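RNA of 18 BMDM libraries had been extracted with a column kit and made into messenger RNA libraries with a SMARTer kit. The authors deposited 1 table of whole-number read counts and of FPKM, which the study's methods credit to StringTie and Ballgown. The submitters' processing notes name StringTie and the builds GRCm38.p4 and mm10. The aligner and the counting program are not given in the sources used here. Deposited FPKM equalled the count divided by library total and a fixed length within 0.0923%, so they served only to compare levels between genes. Counts were fitted for all genes and 6 groups together with edgeR 4.0.16 in R 4.3.3 (filterByExpr, TMM, glmQLFit, glmQLFTest). This left 14241 genes, with a common dispersion of 0.0945. Tests were 2-sided, with Benjamini-Hochberg adjustment over all genes tested, and calls were made under an adjusted p of 0.05. Levels are TMM-scaled CPM.

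The 33 members and all gene lists were chosen with earlier results of these data known. Values in every library were given for the 4 called members with the largest changes in each direction on day 3 against day 0 in each label, for members called between the labels (there were none), and for Lamp1, Lamp2 and Cd63. Manba, Gusb and Hexa were added after their values were seen. Of each other list, the 2 called genes that changed most in each direction in the libraries labelled WT were named, without values for cell type markers. The result of 1 list of cell type markers is not reported here. DESeq2 1.42.0 and limma 3.58.1, on log2(FPKM + 1), were alternatives. The fit was tested on simulated counts. Libraries of a group differed by more than counting noise, and none was a repeat of another. A pair of libraries was taken to deviate together at a correlation over 0.1. Same-number libraries labelled KO did so in every pair between days 0 and 3 (0.13 to 0.398). Between days 1 and 3 their correlations were 0.156 to 0.34. The numbers were taken to pair the KO libraries with day 3, which is an assumption. Between days 0 and 1 the correlations were 0.0536 to 0.598, so that not every pair passed 0.1 there. Libraries labelled WT with the same number did not all pass 0.1 between days 0 and 3 (-0.023 to 0.111). None passed between days 1 and 3 (-0.0659 to 0.0863). Between days 0 and 1 the WT correlations were 0.604 (day 1 library 1b), -0.464 (day 1 library 1) and 0.138 (library 2). Within each label, the day 0 and day 1 pair of unlike title style had the lowest of these values (0.0536 for KO, -0.464 for WT). Same-number libraries of opposite labels ran from -0.393 to 0.352, so a shared origin of same-number libraries is not shown.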

Additional observations from a re-analysis of the deposited data

How the results depend on the processing

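With the replicate number as a block, 22 (WT) and 25 (KO) members were called on day 3 against day 0, with no call lost or gained. Against day 1 the block gave 26 in the libraries labelled KO, which were taken as paired (Asah1 gained). The block gave 19 in those labelled WT, where Galns, Gusb, Mcoln1, Npc1 and Psap were lost. It changed no other call. Leaving out 1 library gave 21 to 24 (WT) and 20 to 23 (KO) members on day 3 against day 0, 18 to 27 (WT) and 18 to 26 (KO) against day 1, 0 to 1 for WT day 1, and 0 to 0 for KO day 1, for each comparison of the labels and for both interactions. For WT day 1, the title style as a covariate (Hexa), the fit without the 5 double-hyphen libraries (Hexa) and DESeq2 (Ppt1) gave 1 each. The KO count of day 3 against day 1 was 3 without those 5 libraries, a setting added once the values were known. The averaged label comparison gave 1 (Gusb) with the title style.

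The sign changes below are all of values that were not called, and their causes were not tested. On total counts and in limma on FPKM, Naglu became 0.25 and 0.25 (WT) and 0.18 and 0.18 (KO), Gaa 0.25 and 0.24 (WT), Cd63 0.23 and 0.24 (KO) and Manba 0.27 and 0.23 (KO). With the title style as a covariate and without the 5 libraries, Naglu became 0.078 and 0.092 (WT) and 0.083 and 0.091 (KO), and Cd63 0.0071 and 0.11 (KO). Without the 5 libraries Manba was 0.0036 (KO). It was also 0.020 with the stricter filter, 0.022 with DESeq2 size factors and 0.022 in DESeq2. Leaving out 1 library gave ranges of -0.12 to 0.13 (WT) and -0.10 to 0.083 (KO) for Cd63 and of -0.24 to 0.063 (WT) and -0.21 to 0.061 (KO) for Naglu. The ranges were -0.039 to 0.32 for Glb1 (KO), -0.12 to 0.087 for Manba (KO) and -0.15 to 0.89 for Zmat1 between the labels on day 0.

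With 3 libraries in each group, a change that did not pass the test is not shown to be absent.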
